A study of Mus musculus with 8 samples.

Results

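The Id genes encode small helix-loop-helix proteins, and the E protein genes Tcf3, Tcf4 and Tcf12 encode the basic helix-loop-helix factors that Id proteins bind. These 7 genes (Id1, Id2, Id3, Id4, Tcf3, Tcf4 and Tcf12), of 18193 with a probe set naming that gene alone, were followed in the mouse genital tubercle, from which the penis or the clitoris develops. They were chosen by gene symbol with the difference between the sexes on these arrays already known, so their differences are given as a description and without a p-value. Every probe set whose annotation named 1 of the genes and no other was taken, 22 in all, 8 for the Id genes and 14 for the E protein genes. Tubercles were microdissected at 14 days post coitum (Theiler stage 22) from FVB/N embryos, an inbred strain, with 4 male and 4 female samples that were not pooled and carried no stated allele or treatment. Total RNA was amplified in 2 rounds, labelled with biotin and hybridised to Affymetrix MOE430 arrays, 1 array per sample. Whether any samples came from 1 litter or were amplified or hybridised together is not in the labels, so each p-value here reflects array-to-array spread that may be technical in part.

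Id proteins lack the basic region with which other helix-loop-helix proteins touch DNA. They pair with E proteins and hold them in dimers that cannot bind, which keeps E proteins from their sites, the E-boxes, and from their tissue-specific partners such as MyoD or Twist. Id1, Id2 and Id3 are direct targets of bone morphogenetic protein (BMP) signalling through Smad proteins, and BMPs act in the outgrowth and patterning of the tubercle. Tcf3 encodes the splice forms E12 and E47, Tcf4 encodes E2-2 and Tcf12 encodes HEB; Tcf3 and Tcf4 here are not the similarly nicknamed Wnt effectors Tcf7l1 and Tcf7l2.

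Promoter sequences were taken from RefSeq (build GRCm38.p6) for the Id and E protein genes whose results are set against each other below: Id3 and Tcf3, which were lower in males, Id4, which was higher in males on its brightest probe set, and Id2, which did not pass. Each window runs from 250 bases before to 50 bases after the annotated gene start and is written 5′ to 3′ on the gene's strand. They lie at chr4:136143572-136143871 (Id3, plus strand), chr10:80433586-80433885 (Tcf3, minus strand), chr13:48260866-48261165 (Id4, plus strand) and chr12:25096043-25096342 (Id2, minus strand). Capitals mark matches, on either strand, to the E-box CANNTG, to the GC-rich Smad element GGCGCC and to the Smad element GTCT or its complement AGAC.
Id3: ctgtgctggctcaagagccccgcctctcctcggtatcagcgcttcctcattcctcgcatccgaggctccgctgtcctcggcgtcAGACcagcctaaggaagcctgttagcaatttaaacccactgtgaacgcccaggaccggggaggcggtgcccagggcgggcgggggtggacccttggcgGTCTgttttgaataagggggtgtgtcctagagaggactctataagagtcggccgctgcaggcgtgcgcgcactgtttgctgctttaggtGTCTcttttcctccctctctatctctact
Tcf3: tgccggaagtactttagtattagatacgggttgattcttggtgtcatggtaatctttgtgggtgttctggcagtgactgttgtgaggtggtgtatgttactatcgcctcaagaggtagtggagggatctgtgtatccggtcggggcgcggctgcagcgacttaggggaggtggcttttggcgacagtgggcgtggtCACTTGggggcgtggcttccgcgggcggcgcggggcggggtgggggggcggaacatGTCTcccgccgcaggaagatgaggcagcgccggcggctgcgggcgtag
Id4: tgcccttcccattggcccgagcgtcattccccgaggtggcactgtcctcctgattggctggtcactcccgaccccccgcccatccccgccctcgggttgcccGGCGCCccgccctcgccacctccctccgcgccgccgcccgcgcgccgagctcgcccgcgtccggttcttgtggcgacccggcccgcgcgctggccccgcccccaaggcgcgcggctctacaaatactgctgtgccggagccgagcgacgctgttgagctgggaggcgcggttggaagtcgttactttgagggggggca
Id2: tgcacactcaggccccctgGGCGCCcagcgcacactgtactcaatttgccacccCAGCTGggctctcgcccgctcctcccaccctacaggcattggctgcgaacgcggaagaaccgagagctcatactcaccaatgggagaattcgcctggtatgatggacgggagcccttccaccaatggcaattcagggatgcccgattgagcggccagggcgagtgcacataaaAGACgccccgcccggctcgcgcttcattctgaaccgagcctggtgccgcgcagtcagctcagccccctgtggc
The Id3 window held 3 matches to GTCT or AGAC and 0 to the other motifs. The Tcf3 window held 1 E-box, CACTTG, and 1 match to GTCT or AGAC. The Id4 window held 1 GGCGCC and 0 of the others, and the Id2 window held 1 of each, with CAGCTG as its E-box. No matches overlapped in these windows. Of 32851 promoter windows of this length, 72.3% held an E-box, 88% held GTCT or AGAC and 11.9% held GGCGCC, so only the GGCGCC of Id4 and Id2 was an infrequent match. A match is a run of letters and not a measured binding site.

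The deposited values are linear intensities, each array scaled to a trimmed mean of 1500. All differences are given as male minus female of log2(intensity + 16), with the standard error (SE) of a limma fit over all tested probe sets, and a probe set passed where its Benjamini-Hochberg adjusted p over the whole array was under 0.05. Intensities of different probe sets cannot be set against each other, since each has its own affinity. Median intensity ran from 184.4 to 206.6 on the female arrays and from 211.7 to 249.4 on the male arrays. The 18S ribosomal RNA control read 13220 ± 4446 (SD, n = 4) in females and 26740 ± 5677 in males, with ranges that did not overlap (p = 0.0286 in a two-sided exact permutation test, which with 4 against 4 arrays can give no smaller p, and 0.0571 adjusted over 4 array measures). The Actb 5′/3′ ratio, a measure of RNA integrity, was 0.189 in male replicate 1 and 0.179 in male replicate 3, above the 0.111 to 0.155 of the other arrays. Male replicate 3 also carried Xist signal of 16036, against 230 to 620 in the other males, with the Y-linked gene Eif2s3y at the male level. In whole tubercles, fewer expressing cells and less RNA per cell cannot be told apart.

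Among the Id genes, Id1 and Id3 were lower in male tubercles, Id4 was higher in males on 1 of its probe sets, and Id2 did not pass on either of its tested probe sets. The largest difference was that of Id4, 3.16-fold higher in males, followed by Id3, 2.45-fold higher in females, and Id1, 1.66-fold higher in females. The sign of the difference therefore was not shared across the family. Of 6 tested Id probe sets, 1 passed higher in males and 2 passed lower, where 18.7% of all tested probe sets passed higher and 21.9% lower.

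Id1, an inhibitor widely expressed in embryonic mesenchyme and endothelium, has 1 probe set (1425895_a_at). It read 4066, 3537, 3836 and 3894 on female arrays 1 to 4 and 2790, 2332, 2081 and 2027 on male arrays 1 to 4. Every female array was above every male array, and male replicate 1 was the highest of the males. The female mean was 3833 ± 220.2 (SD, n = 4) and the male mean 2307 ± 348.1, a difference of -0.74 ± 0.12 (SE).

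Id3, the close relative of Id1, also has 1 probe set (1416630_at). It read 8392, 6840, 6596 and 5340 in the females and 3506, 2515, 2552 and 2501 in the males. The sexes did not overlap. Male replicate 1 stood apart from the other 3 males, which lay close together, while the females covered a wide range. The female mean was 6792 ± 1253 and the male mean 2768 ± 492 (SD, n = 4 each), a difference of -1.29 ± 0.15.

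Id2, an inhibitor that also binds the retinoblastoma protein, was bright and even across the sexes on its main probe set (1435176_a_at). That probe set read 12795, 10636, 11746 and 15342 in the females and 13946, 13010, 13157 and 13122 in the males. All 4 males fell inside the female range, and the difference of 0.09 ± 0.10 did not pass. A dimmer Id2 probe set (1422537_a_at) read 394.7, 324.5, 279 and 261.3 in females and 275.5, 129.8, 236.6 and 198.5 in males. Its difference of -0.58 ± 0.25 did not pass and the ranges overlapped at male replicate 1. It did pass without that array (-0.72), with quantile normalisation (-0.77) and with array weights (-0.72). A probe set below the intensity filter (1453596_at) ranged from 17.8 to 145.7 in females and from 81.4 to 209.6 in males, so the 3 Id2 probe sets gave differences of both signs. The Id2 probe sets were built on 3 different sequence records.

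Id4, the Id family member that can oppose the others in some cells, gave values that depended on the probe set. On the brightest (1450928_at) it read 1862, 2123, 1966 and 2739 in females and 6968, 7100, 6444 and 6918 in males. The male arrays were tightly grouped, and no array lay between the highest female at 2739 and the lowest male at 6444. The means were 2173 ± 392.5 and 6857 ± 285.9 (n = 4 each), a difference of 1.67 ± 0.13.

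The next Id4 probe set (1423259_at) showed no such separation. It read 2146, 1678, 2047 and 2017 in females and 2416, 2190, 1464 and 1827 in males, with the lowest and the highest array both male. Its means were 1972 ± 203.6 and 1974 ± 417.7, and its difference was -0.02 ± 0.16. The last Id4 probe set (1423260_at) lay below the filter, at 76 to 155.2 in females and 130.1 to 196.1 in males. All 3 Id4 probe sets were designed on 1 sequence record. The log2 ratio of 1450928_at to 1423259_at was 0.13 ± 0.31 (SD, n = 4) in females and 1.81 ± 0.26 in males, a gap within 1 record that the gene symbol alone does not show.

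**Figure D1:**
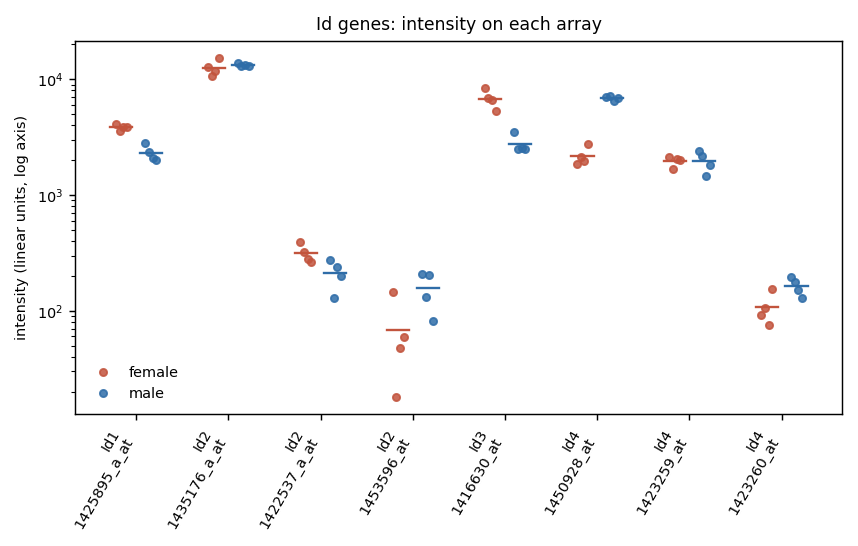
Intensity (log axis) of the 8 Id probe sets on each of the 4 female and 4 male arrays, with points for arrays and lines for means. Id1, Id3 and Id4 1450928_at show sexes that do not overlap, while Id2 1435176_a_at and Id4 1423259_at show overlapping sexes.

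Among the E protein genes, Tcf3 was lower in males on each of its probe sets, Tcf4 gave passing differences of both signs, and Tcf12 was bright and differed little on its brightest probe set. Of 13 tested E protein probe sets, 4 passed higher in males and 3 lower, 53.8% in all beside 40.5% of all tested probe sets.

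Tcf3, which encodes E12 and E47, read 8427, 8102, 7855 and 7216 in females and 3437, 2669, 3044 and 3097 in males on its brightest probe set (1426297_at). The sexes did not overlap, with the lowest female at 7216 and the highest male at 3437. The means were 7900 ± 512.6 and 3062 ± 314.3 (n = 4 each), a 2.58-fold difference (-1.37 ± 0.10). A probe set shared between Tcf3 transcripts (1427764_a_at), on a different sequence record, read 536.1, 497.5, 642.4 and 519.6 in females and 324.6, 188.1, 276.6 and 200.6 in males. The female and male ranges were again apart, with a difference of -1.13 ± 0.21. The last (1452542_x_at), below the filter and of a design prone to cross-hybridisation, ran from 132.7 to 199.1 in females and from 8.85 to 95.9 in males. Tcf3 was thus the only 1 of the 5 genes with several probe sets whose probe sets all separated the sexes in 1 direction.

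Tcf4, which encodes E2-2, was measured by 6 probe sets that fell into 3 patterns. The first pattern is a slightly lower level in males on a very bright probe set (1416723_at), which read 34347, 36222, 37475 and 33051 in females and 28430, 30575, 30096 and 30410 in males. The sexes did not overlap, and the difference was -0.24 ± 0.06, which did not pass in a fit without the mean-variance trend.

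The second pattern is a higher level in males on both probe sets of 1 sequence record. The dimmer of the pair (1434149_at) read 5254, 6821, 6205 and 6027 in females and 16937, 16685, 19228 and 13938 in males, 6077 ± 645.8 against 16700 ± 2166 and 2.75-fold apart (1.45 ± 0.11). The brighter (1434148_at) read 27057, 27160, 29668 and 28790 in females and 33289, 31968, 39494 and 35631 in males (0.31 ± 0.07). Both separated the sexes, by different amounts. The log2 ratio of 1434149_at to 1434148_at was -2.22 ± 0.16 (SD, n = 4) in females and -1.08 ± 0.19 in males, although both were designed on 1 record.

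The third pattern is overlap. The probe sets 1416724_x_at and 1424089_a_at both had their highest value in male replicate 1: the former read 7725 there and 2273 to 2955 in the other males, against 2539 to 3845 in females, and the latter read 6457 there, 2153 to 3381 in the other males and 2181 to 3000 in females. Their differences of 0.10 ± 0.30 and 0.32 ± 0.28 did not pass, and without male replicate 1 they were -0.28 and -0.01. The dimmest, 1416725_at, had 250.3 ± 84.2 in females and 328.9 ± 89.7 in males (0.39 ± 0.26) and did not pass. A gene with passing probe sets of both signs was no rarity on these arrays: 371 of 1512 genes with at least 2 passing probe sets (24.5%) had both.

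Tcf12, which encodes HEB, was bright on its main probe set (1427670_a_at), which read 36763, 35900, 37756 and 36007 in females and 36919, 36296, 42935 and 39212 in males. The sexes overlapped, and the difference of 0.08 ± 0.06 did not pass, although with quantile normalisation it was 0.14 and passed. A dimmer probe set (1421908_a_at) read 5358, 5738, 6390 and 5516 in females and 7550, 6380, 7212 and 6916 in males (0.29 ± 0.09). It passed with ranges that touched, and no longer passed without female replicate 1, 2 or 4 or male replicate 1, 3 or 4, at differences of 0.25 to 0.29.

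Of the other Tcf12 probe sets, 1439619_at read 140.5, 268.7, 337.4 and 276.1 in females and 581.4, 415, 702.3 and 319 in males (0.94 ± 0.30). It passed with overlapping ranges, and did not pass without female replicate 1 (0.69), male replicate 1 (0.85) or male replicate 3 (0.76). The highest values were those of male replicates 3 and 1, the arrays with the highest 18S control and Actb ratio; the part of either in this difference was not tested beyond the covariate given below. The probe set 1439209_at had 914.7 ± 318.3 in females and 1342 ± 304.9 in males (0.59 ± 0.26), and 1446294_at had 1260 ± 141.2 and 1265 ± 252.6 (-0.01 ± 0.16). Neither passed.

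**Figure D2:**
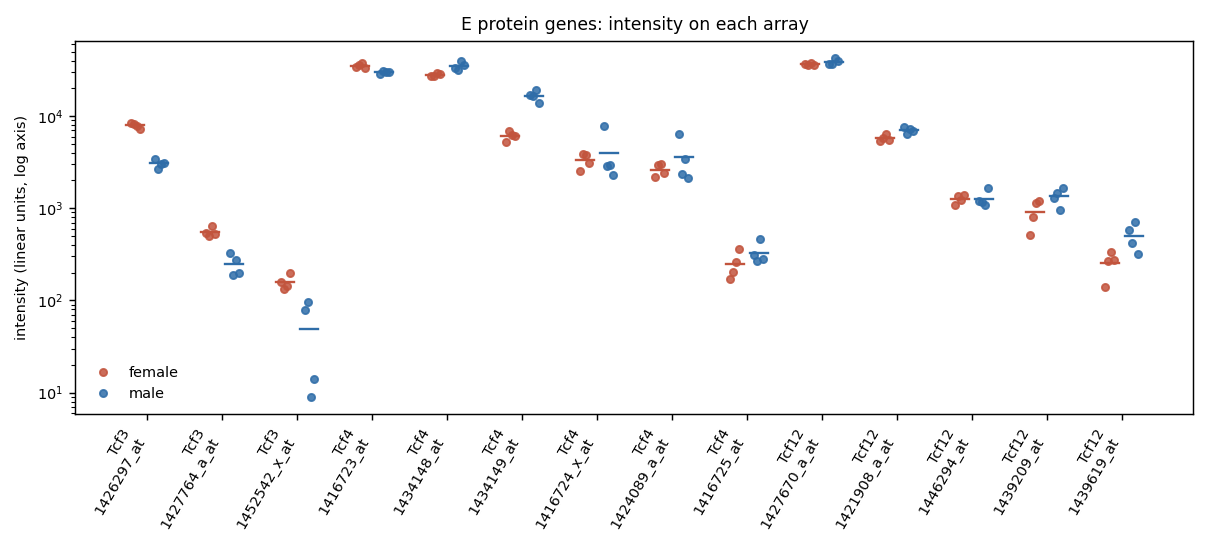
Intensity (log axis) of the 14 probe sets of Tcf3, Tcf4 and Tcf12 on each of the 4 female and 4 male arrays, with points for arrays and lines for means. The Tcf3 probe sets and Tcf4 1434149_at separate the sexes in opposite directions, and Tcf4 1416724_x_at and 1424089_a_at read highest in 1 male array.

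Of the 22 probe sets, 19 passed the intensity filter (mean log2 value of at least 7.77) and 10 of these (52.6%) passed the test, 5 higher and 5 lower in males. Over all 22519 tested probe sets 40.5% passed, 18.7% higher and 21.9% lower in males, and 11190 had an unadjusted p under 0.05. Male and female ranges were apart for 8 of the 19 (42.1%), against 37.1% of all tested probe sets. Since the genes were chosen with this contrast known, nothing is read from these shares. The median difference was 0.09 over the 19 and -0.01 over all, and the median absolute difference was 0.39 against 0.35. Within a sex, the median SD of the 19 was 0.22 on the log2 scale, beside 0.23 over all.

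The 18S control differed between the sexes with no overlap, so a fit with the 18S level beside sex has little left with which to tell them apart. In that fit, 414 of all tested probe sets (1.84%) passed, and 3 of the 10 member probe sets did: Id4 1450928_at (1.53 ± 0.23), Tcf3 1426297_at (-1.36 ± 0.20) and Tcf4 1434149_at (1.06 ± 0.16). Id3 (-1.14 ± 0.27), Id1 (-0.66 ± 0.23) and Tcf3 1427764_a_at (-1.30 ± 0.39) kept differences of like size with larger errors and did not pass. Tcf4 1434148_at (0.24 ± 0.13) and 1416723_at (-0.24 ± 0.11) did not pass either, nor did Tcf12 1421908_a_at (0.19 ± 0.18). Tcf12 1439619_at was the one whose difference went to -0.04 ± 0.42.

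**Figure D3:**
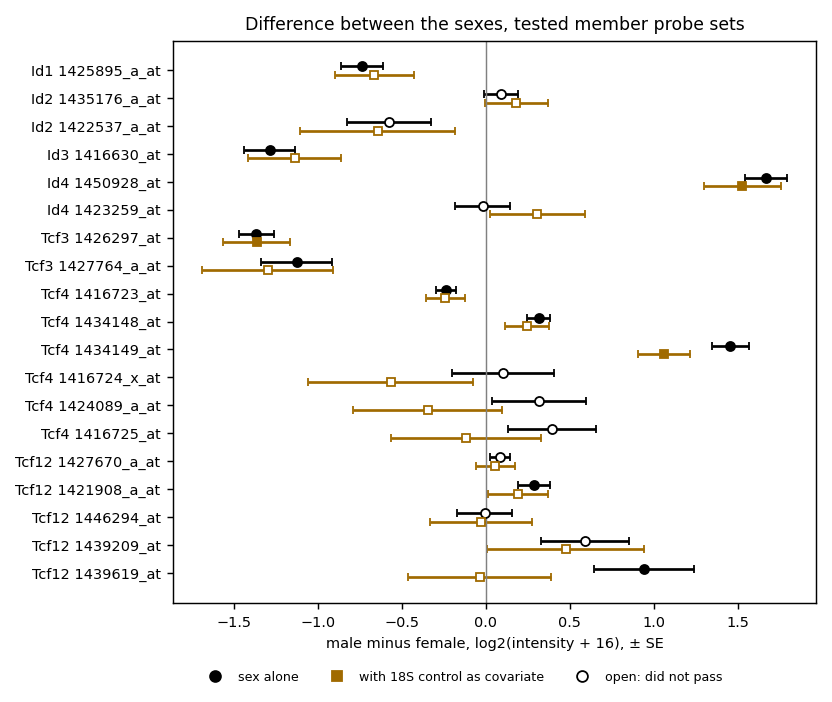
Difference between the sexes (male minus female, log2 of intensity + 16, ± SE) for the 19 tested probe sets, with sex alone (circles) and with the 18S control as a covariate (squares), open where the probe set did not pass. Id4 1450928_at, Tcf3 1426297_at and Tcf4 1434149_at are filled in both fits, while Tcf12 1439619_at moves to about 0.

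Arrays of a sex differed from each other more on some probe sets than on others. Male replicate 1 lay above the mean of its sex by 1.14 on the log2 scale for Tcf4 1416724_x_at, by 0.99 for 1424089_a_at and by 0.35 for Id3. On the brightest Id4 probe set the same array deviated by 0.02. The high reading of male replicate 1 was thus seen on some probe sets and not on others, and the part of that array's high Actb ratio in it was not tested.

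**Figure D4:**
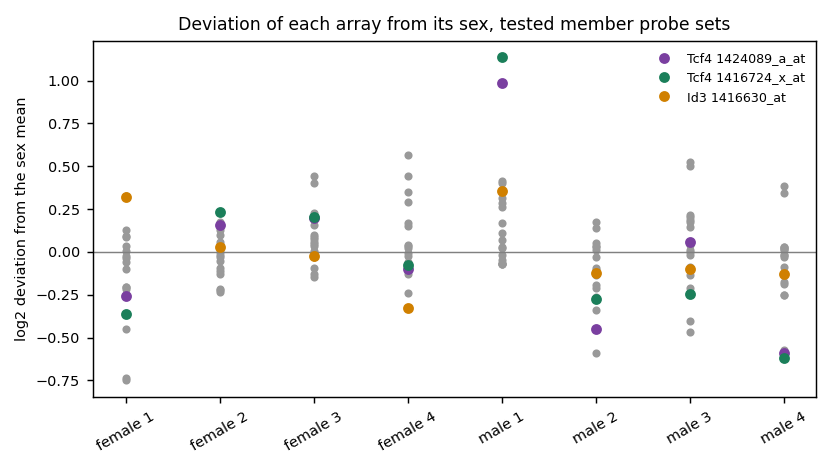
Log2 deviation of each array from the mean of its sex, with 1 point for each of the 19 tested probe sets and colours for Id3 and 2 Tcf4 probe sets. Male replicate 1 holds the points farthest from 0, the Tcf4 probe sets 1416724_x_at (1.14) and 1424089_a_at (0.99).

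Across the 8 arrays, the likeness of profiles was measured as the root mean square distance between mean-centred log2 values on the brightest tested probe set of each gene. Between the 7 genes the smallest distance was that of Id3 and Tcf3 (0.148), both lower in males, and the largest that of Id4 and Tcf3 (1.53). Id4 was represented by 1450928_at, so its distances and nearest genes are those of that 1 probe set. Its other tested probe set, 1423259_at, differed by -0.02 between the sexes. Tcf12 lay close to Id2 (0.163) and to Tcf4 on its brightest probe set (0.178). Among all genes, the nearest to Id1 were Mcrip1 (0.043), Cdipt (0.053), an enzyme of phosphatidylinositol synthesis, and Gfus (0.064), an enzyme of GDP-fucose synthesis. The nearest to Id3 were Coro1b (0.088), an actin regulator, Trmt112 (0.094), a partner of several methyltransferases, and Hebp1 (0.095), a haem-binding protein. Nearest to Id4 were Gsr (0.143), which encodes glutathione reductase, Chsy3 (0.148), an enzyme of chondroitin synthesis, and Cldnd1 (0.191), and nearest to Id2 were Prelid2 (0.063), Acot1 (0.074) and Amn1 (0.076). These distances describe 8 arrays in which sex is the main contrast, so any gene with a similar sex difference is near.

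The genes that feed into and act with the Id and E proteins were then counted in lists, each gene on its brightest tested probe set. Over all 11489 tested genes, 42.2% passed, 14% higher and 28.2% lower in males, with a median difference of -0.12. These are the shares beside which the counts below stand. Adjusted p-values are from limma with Benjamini-Hochberg adjustment over all tested probe sets.

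Of the BMP ligands, the upstream signal of Id1 to Id3, all 4 that were tested passed, 2 higher and 2 lower in males. Bmp2 rose from 4861 ± 579.6 in females to 7442 ± 257.6 in males (SD, n = 4; 0.62 ± 0.10, limma adjusted p = 0.000675) and Bmp5 from 7357 ± 450.1 to 11620 ± 644.8 (0.66 ± 0.08, limma adjusted p = 0.000154). Bmp4 fell from 4579 ± 326 to 2609 ± 829.4 (-0.85 ± 0.18, limma adjusted p = 0.00281) and Bmp7 from 4353 ± 85.8 to 2533 ± 244.1 (-0.78 ± 0.11, limma adjusted p = 0.000247). The list median was -0.08. With the 18S covariate Bmp2 and Bmp5 still passed (limma adjusted p = 0.0219 and 0.0408) and Bmp4 and Bmp7 did not (0.113 and 0.0643).

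Of 10 tested BMP receptors and signalling Smads, 2 were higher and 2 lower in males and 6 did not pass, with a median of 0.09. The type I receptor gene Bmpr1b rose from 426.2 ± 85.8 to 1258 ± 340.6 (1.51 ± 0.22, limma adjusted p = 0.000339), and the endothelial coreceptor gene Eng was lower (-0.84 ± 0.19, limma adjusted p = 0.00473). A dimmer Eng probe set, at 0.02, did not pass. The type II receptor gene Bmpr2 was slightly higher (0.17 ± 0.06, limma adjusted p = 0.042) and Smad5 lower (-0.25 ± 0.08, limma adjusted p = 0.0216), though 2 other Smad5 probe sets passed in the opposite direction. The call of Bmpr2 ended without any 1 of 7 arrays, all but male replicate 1 (highest limma adjusted p = 0.107, at 0.14 without male replicate 3). That of Smad5 ended without female replicate 1, 2 or 3 (highest limma adjusted p = 0.0729, at -0.20 without female replicate 1). The type I receptor gene Bmpr1a (0.09 ± 0.07, limma adjusted p = 0.329) and the signal transducer Smad1 (0.14 ± 0.08, limma adjusted p = 0.189) did not pass on their brightest probe sets, while 1 dimmer probe set of each passed, lower in males for Bmpr1a and higher for Smad1. Acvr2b and Smad4 did not pass on their brightest probe sets either, and 1 dimmer probe set of each passed lower in males (-0.89 and -0.17).

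Of 15 tested BMP antagonists and inhibitory Smads, 3 were higher and 4 lower in males and 8 did not pass, with a median of -0.09. The secreted antagonist Fst (0.74 ± 0.13), Bmper (0.58 ± 0.11) and Twsg1 (0.32 ± 0.08) were higher (limma adjusted p = 0.00119, 0.00166 and 0.00552). The inhibitory Smad6 (-0.97 ± 0.19), the decoy receptor gene Bambi (-0.75 ± 0.13), the Smad corepressor gene Ski (-0.66 ± 0.12) and the ubiquitin ligase gene Smurf2 (-0.35 ± 0.08) were lower (limma adjusted p = 0.00207, 0.000781, 0.00108 and 0.00611). Another Smurf2 probe set passed in the opposite direction, and a dimmer Ski probe set, at -0.17, did not pass. The inhibitory Smad7 (0.02) and Chrdl1 (-0.03) did not pass on their brightest probe sets. A dimmer probe set of each passed higher in males (1.06 for Smad7 and 0.82 for Chrdl1).

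Of 12 tested BMP targets other than the Id genes, 2 were higher and 4 lower in males and 6 did not pass, with a median of -0.15. Smad6 and Bambi, which are also targets, were given above. The homeobox genes Dlx5 (-0.78 ± 0.23, limma adjusted p = 0.0165) and Msx2, which read 1994 ± 312.2 in females and 1186 ± 306.4 in males (-0.76 ± 0.19, limma adjusted p = 0.00679), were lower. Tbx3 (0.88 ± 0.15, limma adjusted p = 0.000777) and Gata2 (0.77 ± 0.17, limma adjusted p = 0.00374) were higher, with another Tbx3 probe set passing in the opposite direction (-0.62). None of these 6 passed with the 18S covariate.

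The tissue-specific, or class II, basic helix-loop-helix factors are the dimer partners of E proteins. Of 35 on the array 10 passed the filter; 3 of these were higher and 3 lower in males, with a median of 0.05. The muscle determination factor Myod1 rose from 539.6 ± 118.4 to 954.1 ± 159 (0.82 ± 0.20, limma adjusted p = 0.00611). The muscle factor Myog (0.64 ± 0.21, limma adjusted p = 0.0279) and Msc (0.65 ± 0.23, limma adjusted p = 0.041), which is not among the muscle markers counted here, were higher too. Of 10 tested markers of skeletal muscle, 7 were higher in males, Myod1 and Myog among them, and 0 lower. With the 18S covariate 3 of the 10 passed. The summed intensity of the 10 ran from 7275 to 17470 in females and from 20210 to 31080 in males. These sums were led by Actc1 (means of 6061 in females and 9780 in males) and Myh3 (3556 and 9134). Tal1, a factor of blood and endothelium, fell from 644.9 ± 128 to 408.8 ± 103.4 (-0.65 ± 0.22, limma adjusted p = 0.0304). The mesenchymal factors Twist1 (-0.31 ± 0.09, limma adjusted p = 0.0182) and Twist2 (-0.35 ± 0.09, limma adjusted p = 0.00798) were lower, and Hand2, at -0.29 ± 0.15, did not pass (limma adjusted p = 0.142).

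Several of these calls were lost when 1 array was left out. That of Myog ended without female replicate 2 (0.43, limma adjusted p = 0.0682), male replicate 1 or male replicate 2, and that of Twist1 without male replicate 2 (-0.27, limma adjusted p = 0.0538) or male replicate 4. That of Msc ended without any 1 of 5 arrays, female replicates 2 and 3 and male replicates 1, 2 and 4 (highest limma adjusted p = 0.119, at 0.53 without female replicate 3). That of Tal1 ended without female replicate 2, 3 or 4 or male replicate 2 or 4 (highest limma adjusted p = 0.0937, at -0.53 without female replicate 2).

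Most Hes and Hey repressors bind DNA without an E protein and answer to Notch and BMP signals. Of 6 tested, with the related Bhlhe40 counted among them, 0 were higher and 1 lower and 5 did not pass, with a median of 0.14. Hes6 (-0.38 ± 0.14, limma adjusted p = 0.0476) lost its call without any 1 of 7 arrays, all but male replicate 1 (highest limma adjusted p = 0.121, at -0.30 without female replicate 4). Hes1 (-0.21 ± 0.15, limma adjusted p = 0.283) and Hey1 (0.13 ± 0.16, limma adjusted p = 0.539) did not pass.

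Id proteins also bind ETS factors, retinoblastoma family proteins and others outside the E proteins. Of 12 genes tested on a list drawn up for such partners, 2 were higher and 3 lower in males and 7 did not pass, with a median of -0.06. The ETS factor gene Ets1 rose from 14050 ± 1352 to 23960 ± 3045 (0.77 ± 0.10, limma adjusted p = 0.000205), and the proteasome subunit gene Psmd4 fell from 4213 ± 227 to 2210 ± 832.2 (-0.99 ± 0.19, limma adjusted p = 0.00202). A dimmer Psmd4 probe set, at -0.24, did not pass. The protease gene Ide, for which no binding to Id proteins is shown here, was lower (-0.33 ± 0.09, limma adjusted p = 0.0115), with another probe set passing in the opposite direction. The calls of the retinoblastoma family gene Rbl2 (0.47 ± 0.16, limma adjusted p = 0.0392) and the LIM protein gene Fhl2 (-0.48 ± 0.18, limma adjusted p = 0.0491) were not kept in every fit without 1 array. Rbl2 lost its call without any female array or male replicate 2 (highest limma adjusted p = 0.118, at 0.35 without male replicate 2), and Fhl2 without any 1 of 7 arrays, all but female replicate 3 (highest limma adjusted p = 0.134, at -0.35 without female replicate 4).

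Id proteins are short-lived and are marked for the proteasome by ubiquitin ligases. Of 11 tested genes of this turnover, 1 was higher and 4 lower in males, with a median of -0.15. Of 6 tested subunit and activator genes of the anaphase-promoting complex, which marks Id proteins among many others, 3 were lower and 3 did not pass. Anapc2 fell from 3516 ± 167.2 to 1944 ± 179.4 (-0.85 ± 0.11, limma adjusted p = 0.00022), Cdc20 differed by -0.46 ± 0.08 (limma adjusted p = 0.00134) and Anapc1 by -0.31 ± 0.07 (limma adjusted p = 0.00572, another probe set opposite). Those that did not pass were Fzr1 (-0.45 ± 0.19, limma adjusted p = 0.0789), Cdc16 (-0.13 ± 0.07, limma adjusted p = 0.146) and Cdc27 (-0.05 ± 0.10, limma adjusted p = 0.735, with another probe set passing higher in males). Fzr1 did pass with quantile normalisation (-0.62) and without the mean-variance trend. Smurf2, given above, was the remaining lower gene. Skp2, a substrate receptor of another ligase, was higher (0.31 ± 0.08, limma adjusted p = 0.00919), as were 3 other Skp2 probe sets.

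The list of E protein cofactors was drawn widely and also held Skp2 of the turnover list, Stub1, Notch1 and Tcf24. Of its 18 tested genes, 2 were higher and 6 lower in males and 10 did not pass, with a median of -0.10. The acetyltransferase gene Kat2a fell from 1415 ± 135.2 to 568.9 ± 111.4 (-1.30 ± 0.17, limma adjusted p = 0.000173). A dimmer Kat2a probe set, at 0.09, did not pass. The LIM adaptor genes Ldb1 (-1.10 ± 0.26, limma adjusted p = 0.00619) and Lmo4 (-0.93 ± 0.22, limma adjusted p = 0.0064) and the deacetylase gene Hdac1 (-0.76 ± 0.10, limma adjusted p = 0.000268) were also lower. The 2 higher genes were Ldb2 (0.53 ± 0.15, limma adjusted p = 0.013), the paralog of Ldb1, and Skp2.

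Of 15 tested genes known as targets of E protein or basic helix-loop-helix dimers, 4 were higher and 1 lower in males and 10 did not pass, with a median of 0.00. The lymphoid factor gene Ikzf1 rose from 197.1 ± 56 to 488.6 ± 113.1 (1.26 ± 0.25, limma adjusted p = 0.002) and the cartilage factor gene Sox9 from 703.6 ± 108.2 to 1541 ± 171.9 (1.12 ± 0.16, limma adjusted p = 0.000297). On this probe set Sox9 also passed with the 18S covariate (limma adjusted p = 0.0203), while a dimmer Sox9 probe set, at 0.11, did not pass between the sexes. Ikzf1 did not pass with the covariate (limma adjusted p = 0.371). It was dim in females, at 124.6 to 260.5, and met the intensity filter only with the male readings. Of 4 tested cartilage markers, 2 were higher in males, Sox9 itself among them. Ets1, given above, and Thbs1 (0.64 ± 0.23, limma adjusted p = 0.0388) were the other higher genes, and the call of Thbs1 ended without female replicate 1 or 4 or male replicate 1 or 2 (highest limma adjusted p = 0.114). The cell cycle kinase gene Cdk6 was lower (-0.75 ± 0.10, limma adjusted p = 0.000273), with another probe set passing in the opposite direction (0.94). Of the cyclin-dependent kinase inhibitor genes of the list, which E proteins can activate, none of the 5 tested passed: Cdkn1a differed by 0.44 ± 0.19, Cdkn1c by 0.26 ± 0.12, Cdkn2d by 0.13 ± 0.23, Cdkn1b by 0.0044 ± 0.25 and Cdkn2c by -0.31 ± 0.15 (lowest limma adjusted p = 0.091, for Cdkn1a). Without female replicate 4, Cdkn2c did pass (-0.42).

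**Figure D5:**
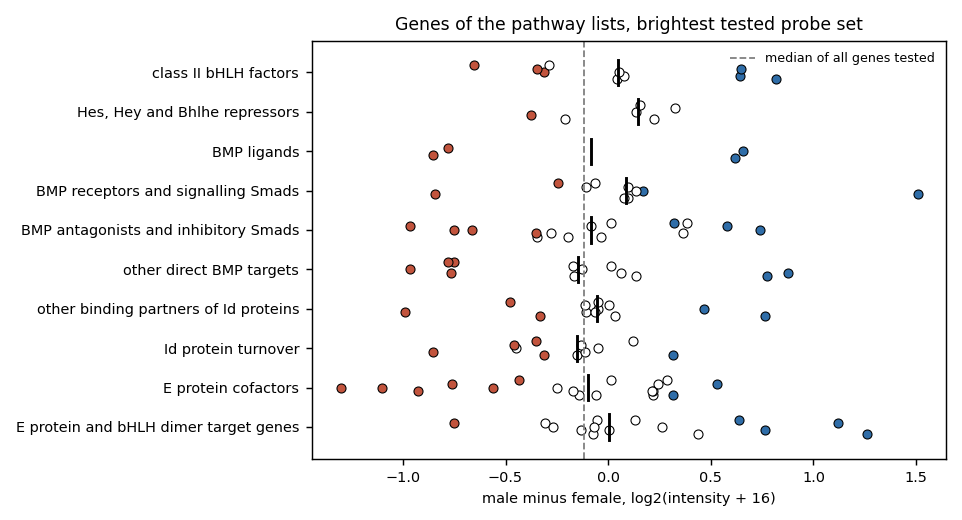
Male minus female difference (log2 of intensity + 16) for each tested gene of 10 pathway lists on its brightest tested probe set, with filled points for genes that passed and a bar at each list's median, which lies between -0.15 and 0.14. The dashed line is the median of all tested genes, -0.12.

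Id and E protein genes are expressed in many cell types, so markers of the cells a dissected tubercle can hold were counted as well. The tubercle's own markers Hoxd13, Isl1 and Shh were bright in both sexes, while Fgf10 was dim (means of 267.3 in females and 352.1 in males) and Hoxa13 lay below the filter. On their brightest probe sets, 3 of 7 tested tubercle markers were lower in males and 0 higher. Their summed intensity was 118800 to 133300 in females and 105800 to 110300 in males. Tbx5 (1.80 ± 0.74, limma adjusted p = 0.0699) did not pass. Among dimmer probe sets, 2 of Wnt5a passed higher in males, and that of Isl1, at 0.49, did not pass. Of 10 tested markers of blood endothelium, where Id1 and Id3 are known to be expressed, 3 were higher and 2 lower in males, with a summed intensity of 15640 to 18490 in females and 17300 to 21130 in males. Of 12 epithelial markers 1 was higher and 4 lower, with sums of 60830 to 71480 and 61680 to 67950, and Krt8 differed by -1.15 ± 0.19 (limma adjusted p = 0.000715). Of 8 mesenchymal markers 1 was higher and 2 lower, with sums of 190000 to 210300 and 187500 to 195000. The higher gene was Col1a1 (0.47 ± 0.11, limma adjusted p = 0.00594), and another Col1a1 probe set passed lower in males (-1.98). Dimmer probe sets of Pdgfra (1.12) and Prrx1 passed higher in males, where the brightest of each did not pass.

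Neuronal markers were mostly higher in males, 4 of 6 tested with 1 lower, and their sums did not overlap (8649 to 10110 in females, 11420 to 15650 in males). The neuronal sums were led by Nefl (means of 5455 in females and 7568 in males) and Nefm (2160 and 3028). All sums are over tested markers only and weigh the brightest probe sets most. Below the filter lay Tubb3 (means of 188.4 in females and 126.7 in males), Elavl3 (231.3 and 138) and Th (148.3 and 144.9). Cartilage sums (3874 to 4313 and 6346 to 9497) and macrophage sums (4363 to 5093 and 5722 to 6849, 2 of 5 markers higher and 1 lower) were also apart and higher in males. The cartilage sums were led by Hapln1 (means of 2050 in females and 2520 in males) and Col9a1 (887.1 and 3052). The macrophage sums were led by Csf1r (means of 1896 in females and 2469 in males) and Mrc1 (1582 and 2530). Dimmer Csf1r probe sets, at -0.32 and -0.40, did not pass. Below the filter, C1qa (220.2 and 160.1) and C1qb (202.4 and 185.3) had lower male means and Fcgr1 (156.4 and 210.6) a higher male mean. Of 4 erythroid markers 1 was higher and 1 lower; their sums (39180 to 42340 and 44060 to 53870) were almost wholly the reading of 1 Hbb-y probe set, at 37212 to 40098 in females and 42548 to 52757 in males, while another Hbb-y probe set passed lower in males and Hba-x differed by -1.09 ± 0.17. Of 4 tested Schwann cell markers 1 was higher and 0 lower, with overlapping sums (5371 to 6547 and 3827 to 6108). In all, 14 markers lay below the filter, the dimmest of them the erythroid gene Epb42 at 3.89 to 31.2. An intensity above 0 does not by itself show that a marker was detected. With the 18S covariate, 3 of the 10 skeletal muscle markers and 1 of the 4 cartilage markers passed, and 0 in each other marker list. The part of these cell types in the differences of Id1, Id3, Id4, Tcf3 and Tcf4 was not tested.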

How the data were processed

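Values of 45101 probe sets on 8 arrays were analysed. The deposited intensity values are linear and already scaled by the authors' software, GCOS of Affymetrix, which the submitters' processing notes name (version not given in the sources used here), and were not normalised again. The 64 control probe sets were left out. A probe set was tested where its mean log2(value + 16) reached the median of all such means, 7.77 (22519 in all). Sex was tested with limma 3.58.1 in R 4.3.3 (lmFit, eBayes with a mean-variance trend) and Benjamini-Hochberg adjustment, threshold 0.05. No depth exists for arrays, and their number limits the precision; no pair of the 28 held identical values. The members, gene lists and alternatives were chosen with earlier results of these data known. Named were the members, up to 4 passing genes a list by size (2 for markers), a set fixed by name, and the 3 nearest genes to each Id gene. Twist2, Bmper, Twsg1, Ide, Anapc1, Ldb2, Thbs1, Fzr1, Cdc16, Cdc27, the Cdkn genes and Epb42 were added after their values were seen. Further genes, mostly markers, were named last for low values, other probe sets or their place in a list. They were not followed singly under the alternatives. Sequences came from RefSeq (GRCm38.p6), which gave promoters for 5 of the 7 genes (not Id1 and Tcf4). The fit was tested on simulated data. Alternatives were other normalisation, pseudocounts, filters and variance models, array weights, the 18S covariate, a replicate block and leaving out each array; leaving out male replicates 1 and 3 together was added later.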

Additional observations from a re-analysis of the deposited data

Results flagged for a closer look

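Male replicate 1 stood apart from the other 3 males on 3 probe sets by Dixon's criterion, the gap to the nearest array as a share of the group's range. On Id3 1416630_at it read 3505.69 against 2500.5 to 2552.32, a gap of 0.948 of the range. On Tcf4 1416724_x_at it read 7724.77 against 2273.19 to 2954.72 (0.875), and on Id2 1435176_a_at it read 13946 against 13010 to 13157 (0.843). Of 44 groups of 4 arrays checked 3 met this criterion, and chance alone gives about 1 in 20. The cause was not tested.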

How the results depend on the processing

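On the whole array 9128 probe sets passed. In separate fits 5890 passed with a filter at the upper quartile, which tests fewer probe sets, and 414 with the 18S covariate. With that covariate the member probe sets that passed higher in males went from 5 to 2 and lower from 5 to 1, and the pathway genes that passed from 46 to 3. With array weights, and without male replicates 1 and 3, 3 member probe sets passed higher in males. Leaving out each array in turn gave 3 to 5 higher and 5 to 6 lower member probe sets, 37 to 45 pathway genes, 7321 to 9454 probe sets in all and an 18S difference of 0.85 to 1.25 on the log2 scale.

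Among the member and named probe sets, only differences that did not pass changed sign, besides Tcf12 1439619_at (-0.036 with the 18S covariate). The probe sets of the genes named last were not followed here. Id4 1423259_at (-0.02) became 0.021 with quantile normalisation, 0.31 with the 18S covariate, 0.027 without male replicates 1 and 3 and -0.12 to 0.12 without single arrays. Tcf12 1446294_at (-0.01) became 0.0036 with quantile normalisation, 0.042 with array weights, 0.13 without the 2 males and -0.14 to 0.064 without single arrays. Tcf4 1416724_x_at (0.10) became -0.57 with the 18S covariate, -0.20 with weights, -0.35 without the 2 males and -0.28 to 0.31 without single arrays. Tcf4 1424089_a_at (0.32) became -0.35, -0.0078 and -0.20 under these 3 settings and -0.012 to 0.51 without single arrays, and Tcf4 1416725_at (0.39) became -0.12 with the covariate. Cdc27 (-0.05) became 0.073, 0.010 and 0.028 under the same 3 settings and -0.10 to 0.058 without single arrays. Cdkn1b (0.0044) became -0.13 with quantile normalisation, -0.00198 at a pseudocount of 64, -0.17 with the covariate and -0.11 to 0.28 without single arrays, and Cdkn2d (0.13) ran from -0.014 to 0.28. Amn1 (0.02) ran from -0.023 to 0.082 without single arrays. The causes were not tested.

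The replicate numbers did not pair the arrays: deviations of same-numbered arrays correlated at -0.13, -0.08, 0.04 and -0.03. With the number as a replicate block 8460 probe sets passed, and the same 10 member probe sets, 5 higher and 5 lower; Cdkn1c passed as well. The same 10 also passed at pseudocounts of 1 and 64 and, with Id2 1422537_a_at and Tcf12 1427670_a_at added, under quantile normalisation. Without the filter Tcf12 1439619_at did not pass and Tcf3 1452542_x_at did, and without the mean-variance trend Tcf4 1416723_at and Tcf12 1421908_a_at did not.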
